A study of Mus musculus with 16 samples.

Results

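The collagen genes are the 44 protein-coding genes whose mouse symbol has the form Col, a number, the letter a and a number, among the 43432 genes of the count files. All 44 had at least 10 reads in at least 4 of the 16 libraries, the level set for reporting, and all 44 were among the 19617 genes tested. They were grouped as 11 fibrillar, 9 basement-membrane, 6 microfibrillar and 18 other collagens. The libraries are poly(A) RNA from medullary thymic epithelial cells (mTECs) of C57BL6.Aire-CreERT2.Ai14 mice, in which tamoxifen lets an Aire-driven Cre switch on a red reporter (RFP) permanently. Mice of both sexes, 5 to 6 weeks old, received 2 mg of tamoxifen and were killed after a chase of 7 days, and live CD45- EPCAM+ cells were sorted by surface MHC class II and RFP. The 4 populations (MHCIIlo and MHCIIhi, each split into RFP- and RFP+) have 4 replicates apiece, every replicate a pool of 12 thymi, and the spread that p-values measure is the one between such pools. All populations carry both transgenes and had the drug, and no untreated group is among them.

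RFP therefore marks cells that drove Cre from Aire during the pulse and their descendants: RFP+ MHCIIlo cells come from cells that drove it then and now show little class II. RFP- cells include those that never expressed Aire and those the pulse missed. Sorted cell numbers were 19400 to 20500 in RFP+ MHCIIlo and at least 80500 in every other library, and counted reads ran from 7929533 to 19457905 per library. Levels are CPM, a gene's reads scaled to the size of the library with TMM, edgeR's correction for library composition, and the values of a population are listed in the order of replicates 1 to 4. Differences are log2 differences from edgeR's quasi-likelihood test over all 16 libraries, with Benjamini-Hochberg adjustment over all tested genes, and a gene was called at an adjusted p under 0.05. An RFP difference is RFP+ minus RFP-, and a gate difference is MHCIIlo minus MHCIIhi. Aire stood at 979 ± 56.1 CPM (SD, n = 4) in RFP- MHCIIhi, 587 ± 32.5 in RFP+ MHCIIhi, 37.9 ± 23.5 in RFP- MHCIIlo and 50.8 ± 25.4 in RFP+ MHCIIlo. The summed level of 8 epithelial markers, with Epcam, keratins and Aire itself among them, was 2888 to 3285 CPM in RFP+ MHCIIlo. It was 3641 to 4390 in RFP- MHCIIlo, 2994 to 3239 in RFP- MHCIIhi and 3022 to 3203 in RFP+ MHCIIhi. Aire adds far more to the sums of the MHCIIhi populations than to those of MHCIIlo. Krt5 and Krt14 were highest in RFP- MHCIIlo, at 1140 to 1567 and 354 to 500 CPM, against 458 to 478 and 86.9 to 109 in RFP+ MHCIIlo. Epcam (419 to 496 against 579 to 621) and Krt18 (650 to 770 against 823 to 1123) were lower there than in RFP+ MHCIIlo. Of the 8 markers, 3 were called higher and 3 lower in RFP+ than in RFP- MHCIIlo.

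Collagens are secreted or membrane proteins whose chains wind into triple helices. Fibrillar collagens form the tensile fibers of connective tissue and are made mainly by mesenchymal cells. Collagen IV forms the sheet of the basement membrane that epithelia rest on and help to build, collagen VI forms beaded microfibrils beside it, and the remaining members decorate fibers, build hexagonal nets or span the cell membrane. Thymic medullary epithelium is known both for its contacts with such matrix and for the Aire-dependent, low-level transcription of tissue-restricted genes.

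Collagen genes often lie in pairs, and the pairs differed in whether their members changed alike, so the stretches upstream of 7 chain genes are shown first. On GRCm38 with GENCODE M21 annotation, Col4a4 (chr1:82448423-82586849, minus strand) and Col4a3 (chr1:82586921-82722059, plus strand) start back to back with 71 bases between them. Col4a6 (chrX:141165403-141474076, minus strand) and Col4a5 (chrX:141475385-141689234, plus strand) start back to back 1308 bases apart. Col4a1 (chr8:11198423-11312826, minus strand) and Col4a2 (chr8:11312805-11449287, plus strand) overlap by 22 bases at their starts. Col6a2 (chr10:76595762-76623630) and Col6a1 (chr10:76708792-76726168) follow each other on the minus strand, and Col6a6 (chr9:105687809-105828160), Col6a5 (chr9:105856078-105960643) and Col6a4 (chr9:105989454-106096783) do so on another chromosome. Col6a3 (chr1:90765923-90843971, minus strand) stands alone. The windows shown are the bases just before the annotated gene start, from the RefSeq promoter table of GRCm38.p6. They are written 5′ to 3′ along the strand of the named gene with any annotated exon trimmed off. Whether they lie in an intron of another gene was not checked. Capitals mark matches, on either strand, to the 4 motifs searched, none of which overlaps another in these windows. The CCAAT box was searched as CCAAT. The TATA box was searched as TATAAA. For the GC box the letters were GGGCGG, which read as CCGCCC when the match is on the opposite strand. For the E-box they were CACCTG.
Col4a4 (chr1:82586850-82586920, minus strand, the stretch shared with Col4a3): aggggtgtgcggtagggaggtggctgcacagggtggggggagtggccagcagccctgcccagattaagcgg
Col4a6 (chrX:141474077-141474326, minus strand): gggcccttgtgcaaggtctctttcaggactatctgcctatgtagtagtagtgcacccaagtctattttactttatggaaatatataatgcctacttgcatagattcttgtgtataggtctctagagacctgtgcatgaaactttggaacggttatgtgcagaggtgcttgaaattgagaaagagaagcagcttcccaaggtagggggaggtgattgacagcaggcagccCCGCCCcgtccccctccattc
Col4a5 (chrX:141475169-141475384, plus strand): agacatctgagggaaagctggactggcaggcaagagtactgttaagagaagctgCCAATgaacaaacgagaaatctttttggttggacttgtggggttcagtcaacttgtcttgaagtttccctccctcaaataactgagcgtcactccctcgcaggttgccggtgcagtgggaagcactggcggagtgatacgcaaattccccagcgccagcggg
Col6a1 (chr10:76726169-76726294, minus strand): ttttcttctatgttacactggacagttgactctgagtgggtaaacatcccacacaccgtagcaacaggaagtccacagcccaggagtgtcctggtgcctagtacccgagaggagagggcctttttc
Col6a2 (chr10:76623631-76623880, minus strand): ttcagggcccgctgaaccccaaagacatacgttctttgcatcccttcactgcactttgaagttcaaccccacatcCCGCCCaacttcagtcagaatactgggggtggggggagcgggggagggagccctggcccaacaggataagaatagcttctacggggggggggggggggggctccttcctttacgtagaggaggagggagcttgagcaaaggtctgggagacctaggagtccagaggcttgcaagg
Col6a3 (chr1:90843972-90844221, minus strand): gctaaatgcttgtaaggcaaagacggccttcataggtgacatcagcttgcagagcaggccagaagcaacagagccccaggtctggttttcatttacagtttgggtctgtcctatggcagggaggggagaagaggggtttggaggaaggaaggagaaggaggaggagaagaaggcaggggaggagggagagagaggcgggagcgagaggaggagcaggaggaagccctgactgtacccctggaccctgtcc
Col6a5 (chr9:105960644-105960893, minus strand): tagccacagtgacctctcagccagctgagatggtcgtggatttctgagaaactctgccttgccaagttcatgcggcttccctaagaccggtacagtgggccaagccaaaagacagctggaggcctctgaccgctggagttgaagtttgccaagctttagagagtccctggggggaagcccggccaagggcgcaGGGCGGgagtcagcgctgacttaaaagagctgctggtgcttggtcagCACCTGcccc

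The 71 bases between Col4a4 and Col4a3 held none of the 4 motifs. A GC box was found upstream of Col4a6, Col6a2 and Col6a5, a CCAAT box upstream of Col4a5, and an E-box upstream of Col6a5. No match was found in the windows shown for Col6a1 and Col6a3. Of 38 upstream windows of 250 bases for 35 of the 44 genes, 57.9% held a GC box, against 32.7% of all 32851 windows of that length. A CCAAT box was in 34.2% against 33.8%, a TATA box in 13.2% against 12.4% and an E-box in 10.5% against 17.2%. These are letter matches only.

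RFP- MHCIIlo cells held the most collagen transcript. The 44 genes together reached 2067 to 2506 CPM there, 875 to 989.5 in RFP- MHCIIhi, 758 to 818 in RFP+ MHCIIhi and 552 to 699.7 in RFP+ MHCIIlo, with no overlap between populations. The share of reads from mitochondrially encoded genes was also highest there, 40.7% to 47.7% against 30.5% to 40.1% in the other 12 libraries, and its part in the collagen differences was not tested. By mean level, 20 members peaked in RFP- MHCIIlo and 6 in RFP+ MHCIIlo, while 14 peaked in RFP- MHCIIhi and 4 in RFP+ MHCIIhi. The shares of all tested genes that peak in each population were not computed, so these counts have no baseline. In these bulk samples, fewer cells of a type and less RNA per cell cannot be told apart. The heat map of all members shows this as bright rows of collagen IV, VI and XII genes in the RFP- MHCIIlo columns.

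**Figure D1:**
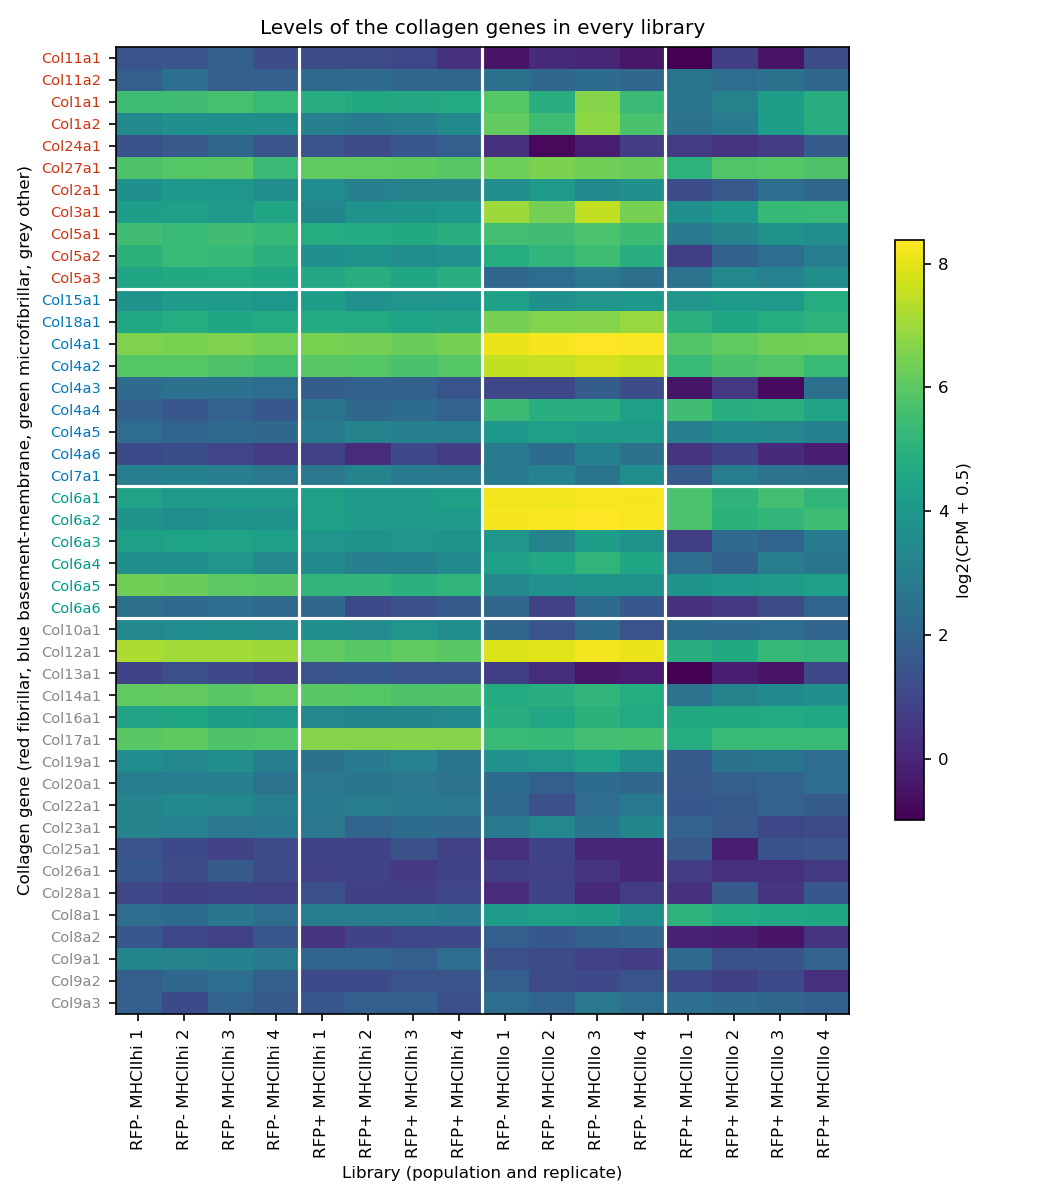
Levels of the 44 collagen genes (rows, grouped by type) in the 16 libraries (columns), as log2(CPM + 0.5) on the color scale. Col4a1, Col4a2, Col6a1, Col6a2 and Col12a1 are brightest in the 4 RFP- MHCIIlo libraries, Col6a5 in RFP- MHCIIhi and Col17a1 in RFP+ MHCIIhi.

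In MHCIIlo cells, 23 collagen genes were lower and 6 higher in RFP+ than in RFP- cells, and 15 were not called. Over all tested genes, 51.6% were called in this comparison, 22.7% lower and 28.9% higher, so the collagens' 52.3% lower stood above the general share and their 13.6% higher below it. The median collagen difference was -0.68, against 0.07 over all genes. Without replicates 1 and 4 of RFP+ MHCIIlo, 22 were lower and 2 higher, and with mitochondrial and ribosomal RNA genes removed from all libraries 25 were lower and 6 higher. By type, 7 of 11 fibrillar (median -1.85), 6 of 9 basement-membrane (median -0.92), 4 of 6 microfibrillar (median -2.01) and 6 of 18 other collagens (median -0.22) fell. Without RFP+ MHCIIlo replicate 4 the medians of basement-membrane and other collagens were -1.93 and -0.34. The 6 that were higher were Col5a3, Col24a1, Col6a5, Col8a1, Col9a1 and Col25a1.

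In MHCIIhi cells, 14 collagen genes were lower and 4 higher in RFP+ cells, 40.9% called against 45% of all tested genes (21.2% lower, 23.8% higher), with a median of -0.34 against -0.02. The 9 basement-membrane members had 1 call, Col4a5. A fit of only those populations called 28 members (63.6%), 21 lower and 7 higher, against 57.6% of all genes it tested. The collagen share was thus below the general share in the main fit and above it in this one. Whether the RFP difference itself differed between the gates was tested as 1 contrast: it was more negative in MHCIIlo for 21 collagens and more positive for 4, 56.8% called against 34.1% of all genes (16.6% and 17.5% by direction), with a median of -0.76 against 0.04.

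Between the gates, the RFP- cells differed in both directions. In RFP- MHCIIlo against RFP- MHCIIhi, 18 collagens were higher and 16 lower, 77.3% called where 69.1% of all genes were (33.5% higher, 35.6% lower). Of the 9 basement-membrane genes 6 were higher there and 1 lower (median 1.80), and of the 18 other collagens 6 were higher and 10 lower (median -0.67). In RFP+ MHCIIlo against RFP+ MHCIIhi, 8 were higher and 19 lower, 61.4% against 55.6% of all genes (27.5% higher, 28.1% lower). The comparisons share populations and are not independent of each other.

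Col4a1 and Col4a2 encode the chains of the common collagen IV heterotrimer. Col4a1 stood at 272, 304, 331 and 315 CPM in RFP- and 57.2, 67.2, 80.6 and 81.8 in RFP+ MHCIIlo cells. Col4a1 in MHCIIhi cells stood at 93.9, 89.9, 94.0 and 83.6 CPM in RFP- and 90.0, 84.0, 74.0 and 87.7 in RFP+. All 4 RFP- MHCIIlo libraries lay far above the other 12, and RFP+ MHCIIlo overlapped RFP+ MHCIIhi. Col4a2 stood at 182, 187, 214 and 191 CPM in RFP- and 39.9, 51.2, 55.7 and 39.8 in RFP+ MHCIIlo cells. Col4a2 in MHCIIhi cells stood at 60.1, 58.9, 54.1 and 48.7 CPM in RFP- and 63.0, 59.1, 51.2 and 59.4 in RFP+. Again RFP- MHCIIlo alone stood apart. In RFP+ MHCIIlo, Col4a1 was 4.26-fold lower than in RFP- MHCIIlo, a log2 difference of -2.09 (SE 0.10, edgeR adjusted p = 5.9e-14), and Col4a2 was 4.16-fold lower, -2.05 (SE 0.11, edgeR adjusted p = 1.6e-13). In MHCIIhi the RFP differences were -0.11 (edgeR adjusted p = 0.40) and 0.07 (edgeR adjusted p = 0.62), neither called. Against RFP- MHCIIhi, the RFP- MHCIIlo cells were 3.38-fold higher for Col4a1 and 3.49-fold higher for Col4a2, log2 1.76 (SE 0.10, edgeR adjusted p = 2.7e-13) and 1.80 (SE 0.10, edgeR adjusted p = 3.5e-13). Between the RFP+ populations Col4a1 differed by -0.23 (edgeR adjusted p = 0.060) and Col4a2 by -0.32 (edgeR adjusted p = 0.013). The Col4a2 call was lost without replicates 1 and 4 of RFP+ MHCIIlo (-0.13, edgeR adjusted p = 0.33), and the Col4a1 difference was called with DESeq2 size factors (-0.27, edgeR adjusted p = 0.022) and without any 1 of RFP+ MHCIIhi replicate 3, RFP+ MHCIIlo replicates 3 or 4, RFP- MHCIIhi replicates 1, 3 or 4 or RFP- MHCIIlo replicate 2 (values from -0.31 to -0.25, edgeR adjusted p from 0.016 to 0.045).

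Col4a3 and Col4a4, which share the 71-base stretch printed above and whose chains assemble with that of Col4a5 in specialized basement membranes, did not change alike. Col4a4 stood at 42.2, 29.9, 29.1 and 19.8 CPM in RFP- and 44.6, 28.6, 30.3 and 21.8 in RFP+ MHCIIlo cells. Col4a4 in MHCIIhi cells stood at 3.15, 2.45, 3.38 and 2.53 CPM in RFP- and 5.53, 4.02, 4.44 and 3.37 in RFP+. It was high in all 8 MHCIIlo libraries and low in all 8 MHCIIhi libraries, with overlapping RFP- and RFP+ ranges in both gates. The gate difference was 3.39 (SE 0.23, edgeR adjusted p = 8.2e-12) in RFP- cells and 2.85 (SE 0.22, edgeR adjusted p = 2.3e-10) in RFP+ cells, 10.5-fold higher and 7.22-fold higher, while the RFP difference in MHCIIlo was 0.05 (edgeR adjusted p = 0.84) and that in MHCIIhi 0.59 (edgeR adjusted p = 0.069), called with no filter on low counts (0.61, edgeR adjusted p = 0.0058) and in a fit of only the MHCIIhi populations (0.60, edgeR adjusted p = 0.0074), and also without any 1 of RFP+ MHCIIlo replicates 1 or 4 or RFP- MHCIIlo replicates 1 or 4 (values from 0.59 to 0.59, edgeR adjusted p from 0.036 to 0.047). Col4a3 stood at 1.49, 1.53, 2.90 and 1.81 CPM in RFP- and 0.216, 0.975, 0.104 and 5.06 in RFP+ MHCIIlo cells. Col4a3 in MHCIIhi cells stood at 4.41, 5.36, 5.22 and 4.77 CPM in RFP- and 2.88, 3.27, 3.29 and 2.18 in RFP+. These MHCIIhi ranges did not overlap, but the RFP difference of -0.75 was not called (edgeR adjusted p = 0.18). It stayed uncalled in 19 of 24 alternatives and was called in the rest, with values from -0.82 to -0.64. The RFP- MHCIIlo libraries all lay below the RFP- MHCIIhi ones, -1.34 (SE 0.48, edgeR adjusted p = 0.017), so the neighbors were called in opposite directions in that comparison. In RFP+ MHCIIlo, replicate 4 had 61 Col4a3 reads and the other libraries 1 to 8. Without that library, Col4a3 was lower in RFP+ than in RFP- MHCIIlo cells (-2.23, edgeR adjusted p = 3.9e-04), against -0.17 (edgeR adjusted p = 0.82) with it. Up to 563 bases of Col4a3 exons overlap a gene on the opposite strand, C430014B12Rik, and reads of such partners cannot be told apart without strand. Exons of 13 collagen genes overlap those of another annotated gene to some extent.

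Col4a5 and Col4a6, the X-linked pair, form a network of their own in some epithelial basement membranes. Col4a5 stood at 15.6, 19.2, 17.5 and 16.8 CPM in RFP- and 7.89, 10.4, 10.1 and 8.21 in RFP+ MHCIIlo cells. Col4a5 in MHCIIhi cells stood at 4.59, 3.68, 4.22 and 4.02 CPM in RFP- and 6.94, 8.69, 7.96 and 7.58 in RFP+. RFP- MHCIIlo lay above every other population and RFP- MHCIIhi below, with the RFP+ populations between and overlapping. Its RFP difference ran in opposite directions, -0.92 (SE 0.14, edgeR adjusted p = 4.9e-06) in MHCIIlo and 0.91 (SE 0.14, edgeR adjusted p = 1.3e-05) in MHCIIhi, and the test of that reversal gave -1.84 (SE 0.20, edgeR adjusted p = 1.6e-07). Col4a6 stood at 6.91, 4.41, 8.27 and 5.33 CPM in RFP- and 0.864, 1.34, 0.623 and 0.332 in RFP+ MHCIIlo cells. Col4a6 in MHCIIhi cells stood at 1.67, 1.87, 1.46 and 1.09 CPM in RFP- and 1.25, 0.642, 1.59 and 1.12 in RFP+. RFP- MHCIIlo lay above all the rest. It was 8.16-fold lower in RFP+ than in RFP- MHCIIlo cells, -3.03 (SE 0.36, edgeR adjusted p = 1.7e-07), with an MHCIIhi difference of -0.40 (edgeR adjusted p = 0.35).

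**Figure D2:**
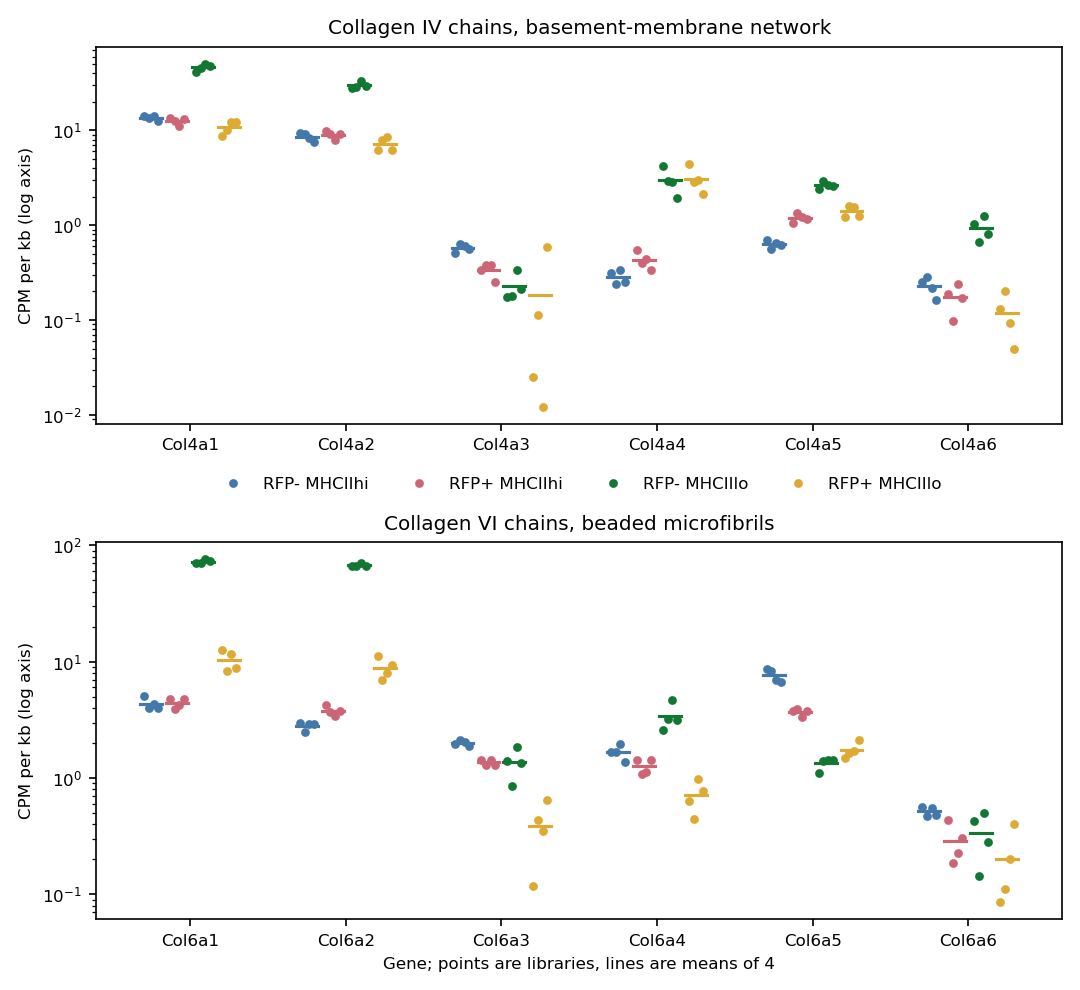
Level of each collagen IV chain (top) and collagen VI chain (bottom) in CPM per kilobase of the longest coding transcript on a log axis, with 1 point per library and a line at the mean of the 4. Col4a1 with Col4a2 and Col6a1 with Col6a2 peak together in RFP- MHCIIlo, while Col4a3, Col6a3 and Col6a5 do not.

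Of the collagens at the basement-membrane border, Col18a1, the source of endostatin, was likewise highest in RFP- MHCIIlo. Col18a1 stood at 86.2, 100.1, 102 and 122 CPM in RFP- and 30.3, 22.8, 27.6 and 32.8 in RFP+ MHCIIlo cells. Col18a1 in MHCIIhi cells stood at 24.2, 27.1, 23.2 and 26.2 CPM in RFP- and 26.0, 25.7, 21.3 and 21.8 in RFP+. Only the RFP- MHCIIlo libraries stood apart, and the RFP difference in MHCIIlo was -1.85 (SE 0.11, edgeR adjusted p = 2.8e-12), 3.60-fold lower. In contrast Col15a1, the other multiplexin, stood at 20.2, 12.5, 14.4 and 15.6 CPM in RFP- and 14.4, 17.1, 16.4 and 27.4 in RFP+ MHCIIlo cells. Col15a1 in MHCIIhi cells stood at 13.7, 17.2, 17.0 and 14.9 CPM in RFP- and 18.6, 13.0, 14.2 and 14.7 in RFP+. All populations overlapped, and no call was made in any of the 5 contrasts. Its gate difference in RFP+ cells, 0.33 (edgeR adjusted p = 0.11), was called without RFP+ MHCIIlo replicate 1 (0.44, edgeR adjusted p = 0.037). Col7a1, the anchoring fibril collagen, stood at 6.91, 8.48, 5.54 and 11.4 CPM in RFP- and 2.70, 7.31, 5.40 and 5.31 in RFP+ MHCIIlo cells. Col7a1 in MHCIIhi cells stood at 7.79, 8.26, 7.52 and 6.09 CPM in RFP- and 6.00, 8.63, 6.86 and 6.39 in RFP+. Its populations overlapped as well. Its RFP difference in MHCIIlo was -0.65 (SE 0.24, edgeR adjusted p = 0.027), and the call was lost without RFP+ MHCIIlo replicate 1 (-0.45, edgeR adjusted p = 0.097), without RFP- MHCIIlo replicate 2 (-0.63, edgeR adjusted p = 0.053) or without RFP- MHCIIlo replicate 4 (-0.44, edgeR adjusted p = 0.14).

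Collagen VI is assembled from the Col6a1 and Col6a2 chains with 1 long chain, from Col6a3, Col6a4, Col6a5 or Col6a6. Col6a1 stood at 289, 289, 310.5 and 300.4 CPM in RFP- and 51.8, 33.8, 47.4 and 35.9 in RFP+ MHCIIlo cells. Col6a1 in MHCIIhi cells stood at 20.7, 16.5, 17.7 and 16.5 CPM in RFP- and 19.4, 16.1, 17.3 and 19.4 in RFP+. The RFP- MHCIIlo libraries lay far above all others. Col6a2 stood at 307, 311, 331 and 311 CPM in RFP- and 52.5, 32.1, 36.9 and 43.5 in RFP+ MHCIIlo cells. Col6a2 in MHCIIhi cells stood at 13.9, 11.6, 13.5 and 13.4 CPM in RFP- and 19.7, 17.2, 15.9 and 17.6 in RFP+. For both, RFP- MHCIIlo was highest, RFP+ MHCIIlo next and MHCIIhi lowest, with no overlap between the gates, and they were the highest collagens of RFP- MHCIIlo per kilobase. Against RFP- MHCIIhi, RFP- MHCIIlo cells were 16.6-fold higher for Col6a1, 4.05 (SE 0.12, edgeR adjusted p = 1.4e-17), and 24.0-fold higher for Col6a2, 4.58 (SE 0.12, edgeR adjusted p = 3.8e-18). In MHCIIlo the RFP+ cells were 7.04-fold lower for Col6a1, -2.82 (SE 0.11, edgeR adjusted p = 3.8e-15). For Col6a2 they were 7.62-fold lower, -2.93 (SE 0.11, edgeR adjusted p = 1.5e-15). In MHCIIhi the RFP difference of Col6a1 was 0.01 (edgeR adjusted p = 0.95), while Col6a2 was higher in RFP+ cells, 0.42 (SE 0.12, edgeR adjusted p = 0.0055), so its calls had opposite signs in the gates. The difference of RFP differences was -3.35 (SE 0.16, edgeR adjusted p = 1.1e-12) for Col6a2 and -2.83 (SE 0.16, edgeR adjusted p = 1.4e-11) for Col6a1.

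The long chains had other patterns. Col6a3 stood at 14.2, 8.65, 18.8 and 13.5 CPM in RFP- and 1.19, 4.39, 3.53 and 6.55 in RFP+ MHCIIlo cells. Col6a3 in MHCIIhi cells stood at 19.8, 21.4, 20.6 and 18.9 CPM in RFP- and 14.4, 13.2, 14.4 and 13.2 in RFP+. It was lowest in RFP+ MHCIIlo, and all 4 RFP- MHCIIlo libraries lay below the RFP- MHCIIhi ones, replicate 3 narrowly and replicate 2 furthest. The RFP difference in MHCIIlo was -1.78 (SE 0.27, edgeR adjusted p = 5.5e-06). Its gate difference in RFP- cells, -0.55 (edgeR adjusted p = 0.033), and its RFP difference in MHCIIhi, -0.55 (edgeR adjusted p = 0.045), lay close to the threshold. The former was lost without any 1 of RFP- MHCIIhi replicates 1, 2 or 3 or RFP- MHCIIlo replicates 2 or 4 (values from -0.55 to -0.38, edgeR adjusted p from 0.053 to 0.13). The latter was lost without any 1 of RFP+ MHCIIhi replicates 1, 2, 3 or 4 or RFP- MHCIIhi replicates 1, 2, 3 or 4 (values from -0.58 to -0.52, edgeR adjusted p from 0.055 to 0.098), although its value barely moved and the MHCIIhi populations did not overlap, and a fit of only the MHCIIhi populations gave -0.53 (edgeR adjusted p = 1.4e-05). Col6a4 stood at 19.2, 23.8, 34.3 and 23.1 CPM in RFP- and 4.65, 3.29, 7.27 and 5.72 in RFP+ MHCIIlo cells. Col6a4 in MHCIIhi cells stood at 12.3, 12.4, 14.4 and 10.2 CPM in RFP- and 10.6, 8.05, 8.29 and 10.5 in RFP+. It was highest in RFP- MHCIIlo and lowest in RFP+ MHCIIlo without overlap, -2.25 (SE 0.20, edgeR adjusted p = 2.1e-09) between them.

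Col6a5 ran the other way. It stood at 10.2, 12.9, 13.2 and 13.3 CPM in RFP- and 13.8, 15.4, 15.9 and 19.8 in RFP+ MHCIIlo cells. Col6a5 in MHCIIhi cells stood at 80.9, 76.9, 64.5 and 62.5 CPM in RFP- and 34.8, 36.1, 31.1 and 34.7 in RFP+. The MHCIIhi libraries lay above all MHCIIlo libraries, with RFP- above RFP+ in MHCIIhi and RFP+ narrowly above RFP- in MHCIIlo. RFP- MHCIIlo was 5.71-fold lower than RFP- MHCIIhi, -2.51 (SE 0.12, edgeR adjusted p = 8.8e-15). The RFP difference was -1.06 (SE 0.10, edgeR adjusted p = 1.4e-08) in MHCIIhi and 0.39 (SE 0.13, edgeR adjusted p = 0.013) in MHCIIlo, and the difference between them 1.45 (SE 0.16, edgeR adjusted p = 3.1e-07). The MHCIIlo call was lost without RFP+ MHCIIlo replicate 4 (0.27, edgeR adjusted p = 0.082) or without RFP- MHCIIlo replicate 1 (0.31, edgeR adjusted p = 0.053). Col6a6, between 0.756 and 4.96 CPM in all libraries, had 1 call, an RFP difference in MHCIIhi of -0.87 (edgeR adjusted p = 0.045), which was lost without any 1 of RFP+ MHCIIhi replicates 2, 3 or 4 or RFP- MHCIIhi replicates 1, 2, 3 or 4 (values from -0.91 to -0.70, edgeR adjusted p from 0.061 to 0.14). Other differences of Col6a6 were called on leaving out 1 library: the RFP difference in MHCIIlo without RFP+ MHCIIlo replicate 4 (-1.32, edgeR adjusted p = 0.011), the gate difference in RFP- cells without RFP- MHCIIlo replicate 3 (-0.88, edgeR adjusted p = 0.049) and that in RFP+ cells without RFP+ MHCIIlo replicate 4 (-1.07, edgeR adjusted p = 0.032).

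Ratios of chain levels per kilobase, for pairs chosen after their values were seen and given without a test, put these shifts on 1 scale. Col4a1 to Col4a2 was 1.46 to 1.61 in RFP- MHCIIlo and 1.28 to 2.00 over all 16 libraries. Col6a1 to Col6a2 was 1.39 to 1.69 in RFP- MHCIIhi against 1.05 to 1.09 in RFP- MHCIIlo. The ratio of Col6a1 to Col6a3 moved further: it was 1.90 to 2.58 in RFP- MHCIIhi and 2.96 to 3.63 in RFP+ MHCIIhi, against 40.8 to 82.2 in RFP- MHCIIlo and 13.5 to 107 for RFP+ MHCIIlo. Col4a4 to Col4a3 was 0.387 to 0.606 in RFP- MHCIIhi, 1.04 to 1.62 in RFP+ MHCIIhi and 8.49 to 24.0 in RFP- MHCIIlo, and in RFP+ MHCIIlo it had a denominator of as little as 1 read. Col1a1 to Col1a2, whose chains form collagen I, was 2.96 to 3.63 in RFP- MHCIIhi and 2.18 to 3.29 in RFP+ MHCIIhi, against 0.617 to 0.833 in RFP- MHCIIlo and 0.922 to 1.12 for RFP+ MHCIIlo, without overlap between the gates.

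The fibrillar genes of loose connective tissue, Col1a1 and Col1a2 (collagen I) and Col3a1 (collagen III), were highest on average in RFP- MHCIIlo and spread widely among its replicates. Col1a1 stood at 59.5, 29.7, 101 and 41.7 CPM in RFP- and 5.73, 8.65, 18.7 and 29.7 in RFP+ MHCIIlo cells. Col1a1 in MHCIIhi cells stood at 43.2, 44.7, 49.3 and 39.8 CPM in RFP- and 28.4, 25.5, 24.5 and 26.1 in RFP+. Replicate 3 of RFP- MHCIIlo was highest, and the RFP- gates overlapped. Col1a2 stood at 69.0, 43.4, 109.9 and 51.5 CPM in RFP- and 5.19, 6.95, 18.3 and 28.4 in RFP+ MHCIIlo cells. Col1a2 in MHCIIhi cells stood at 10.7, 12.6, 12.4 and 12.1 CPM in RFP- and 8.03, 7.00, 7.57 and 10.8 in RFP+. Here RFP- MHCIIlo was clear of the other populations. Col3a1 stood at 126, 84.3, 182 and 87.4 CPM in RFP- and 12.6, 15.5, 38.0 and 39.6 in RFP+ MHCIIlo cells. Col3a1 in MHCIIhi cells stood at 18.1, 19.4, 16.3 and 23.0 CPM in RFP- and 9.28, 13.1, 14.0 and 15.6 in RFP+. Again RFP- MHCIIlo lay above all other populations. For Col1a1, Col1a2 and Col3a1 alike, in RFP+ MHCIIlo replicates 3 and 4 were higher than replicates 1 and 2. The RFP difference in MHCIIlo was -1.85 (SE 0.33, edgeR adjusted p = 6.0e-05) for Col1a1 and -2.18 (SE 0.33, edgeR adjusted p = 5.6e-06) for Col1a2. For Col3a1 it was -2.16 (SE 0.27, edgeR adjusted p = 4.8e-07). The gate difference in RFP- cells was 0.39 (edgeR adjusted p = 0.25) for Col1a1, but 2.52 (SE 0.32, edgeR adjusted p = 3.1e-07) for Col1a2 and 2.64 (SE 0.27, edgeR adjusted p = 9.9e-09) for Col3a1. In RFP+ cells the gate difference of Col3a1 was 1.04 (edgeR adjusted p = 0.0041) and that of Col1a2 0.87 (edgeR adjusted p = 0.042). The Col1a2 call was lost without any 1 of RFP+ MHCIIhi replicates 1, 2 or 3, RFP+ MHCIIlo replicates 3 or 4 or RFP- MHCIIhi replicates 1, 2, 3 or 4 (values from 0.30 to 0.86, edgeR adjusted p from 0.051 to 0.46), the lowest value being the one without RFP+ MHCIIlo replicate 4. That difference was -0.69 (edgeR adjusted p = 0.084) for Col1a1, and called without RFP+ MHCIIlo replicate 4 (-1.23, edgeR adjusted p = 0.0030) or without RFP- MHCIIlo replicate 3 (-0.69, edgeR adjusted p = 0.043). In MHCIIhi, Col1a1 was lower in RFP+ cells, -0.76 (edgeR adjusted p = 0.048), a call lost without any 1 of RFP+ MHCIIhi replicates 1, 2, 3 or 4, RFP- MHCIIhi replicates 1, 2, 3 or 4 or RFP- MHCIIlo replicate 1 (values from -0.81 to -0.71, edgeR adjusted p from 0.052 to 0.10). The call held in 15 of 25 alternatives, all with values from -0.81 to -0.71, and the MHCIIhi ranges of Col1a1 did not overlap.

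Most fibroblast, pericyte and mesothelial markers were lower in RFP+ than in RFP- MHCIIlo cells, like these genes, although the sort kept EPCAM+ cells, while most blood markers were higher. Over all tested genes, 22.7% were lower and 28.9% higher in this comparison. The summed level of 11 fibroblast markers, none of them a collagen, was 581, 465, 856 and 589 CPM in RFP- and 73.3, 98.0, 117 and 155 in RFP+ MHCIIlo cells, and 249, 247, 273 and 299.6 in RFP- and 148, 153, 157 and 171 in RFP+ MHCIIhi cells. Replicate 3 of RFP- MHCIIlo was highest and replicate 2 lowest, as for Col1a1, Col1a2 and Col3a1. Dcn (342, 249, 550 and 362 CPM) and Fbn1 (159, 141, 200 and 154) made up most of the RFP- MHCIIlo sums. The Pdgfrb ranges overlapped, at 9.46, 6.02, 7.51 and 5.76 CPM in RFP- and 5.62, 7.80, 7.27 and 11.4 in RFP+ MHCIIlo. Thy1, which thymocytes also express, made up 36.2% to 49% of the sum in RFP- MHCIIhi, 13.1% to 18.9% in RFP+ MHCIIhi and at most 12.4% in MHCIIlo libraries. Without it the sums were 149.9 to 159 CPM in RFP- and 123 to 139 in RFP+ MHCIIhi. In MHCIIlo cells they were then 455 to 844 for RFP- and 69.3 to 143 for RFP+. Of 10 tested fibroblast markers, 7 fell and 0 rose in RFP+ against RFP- MHCIIlo cells, Dcn by 3.52 (edgeR adjusted p = 3.3e-12) and Fbn1 by 2.45 (edgeR adjusted p = 1.4e-14), while Twist2 was too low to test. Twist2 was at 0 in 1 RFP- MHCIIlo and 2 RFP+ MHCIIlo libraries and no other fibroblast marker was at 0 in any, and Pdgfra was 5.69 CPM in RFP- MHCIIlo and 3.35 in RFP+ MHCIIlo. Of 7 pericyte and smooth muscle markers 5 fell and 0 rose (sums 950.5 to 1160.1 and 321 to 433 CPM in RFP- and RFP+ MHCIIlo). Of 5 mesothelial markers 4 fell and 0 rose (sums 399 to 594 and 317 to 394), and of 9 endothelial markers 5 fell and 3 rose (sums 77.8 to 122 and 81.7 to 101). Of 8 epithelial markers 3 rose and 3 fell, and of 8 blood cell markers 6 rose and 1 fell (sums 125 to 164 and 199 to 290.3). Of 7 chondrocyte markers 3 rose and 1 fell, of 4 Schwann and neural markers 0 rose and 1 fell, and of 4 muscle markers 1 rose and 1 fell. Apart from Sox9 and Matn1, the chondrocyte markers were at most 2.32 CPM in every MHCIIlo library. Matn1 was 7.33 to 15.4 CPM in RFP- and 1.40 to 6.72 in RFP+ MHCIIlo. Of 3 parathyroid markers 1 rose and 2 fell, and parathyroid hormone, Pth, was 427 CPM in RFP- MHCIIlo and 8.42 in RFP+ MHCIIlo, where replicate 3 was at 32.2 and the mean of the other 3 was 0.493. The part of such cells in the collagen differences was not tested.

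The 20 collagens with their highest mean in RFP- MHCIIlo varied to different degrees between its libraries. Among its 4 libraries, the coefficient of variation (SD over mean) was 54.0% for Col1a1, 43.2% for Col1a2 and 37.8% for Col3a1. It was 3.53% for Col6a1, 3.43% for Col6a2, 8.14% for Col4a1 and 11.0% for Col12a1. Of the 20, 9 were at 20% or more, among them Col7a1 at 31.3%, Col4a6 at 27.4% and Col6a4 at 25.6%, and 11 were below. Replicate 3 was the highest library for 14 of the 20, and the like share over all genes was not computed. Leaving replicate 3 of RFP- MHCIIlo out gave 23 lower and 5 higher collagens in the RFP comparison of MHCIIlo, against 23 and 6 with it. The panels of single genes show the fibroblast-marker sum beside the fibrillar genes.

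**Figure D3:**
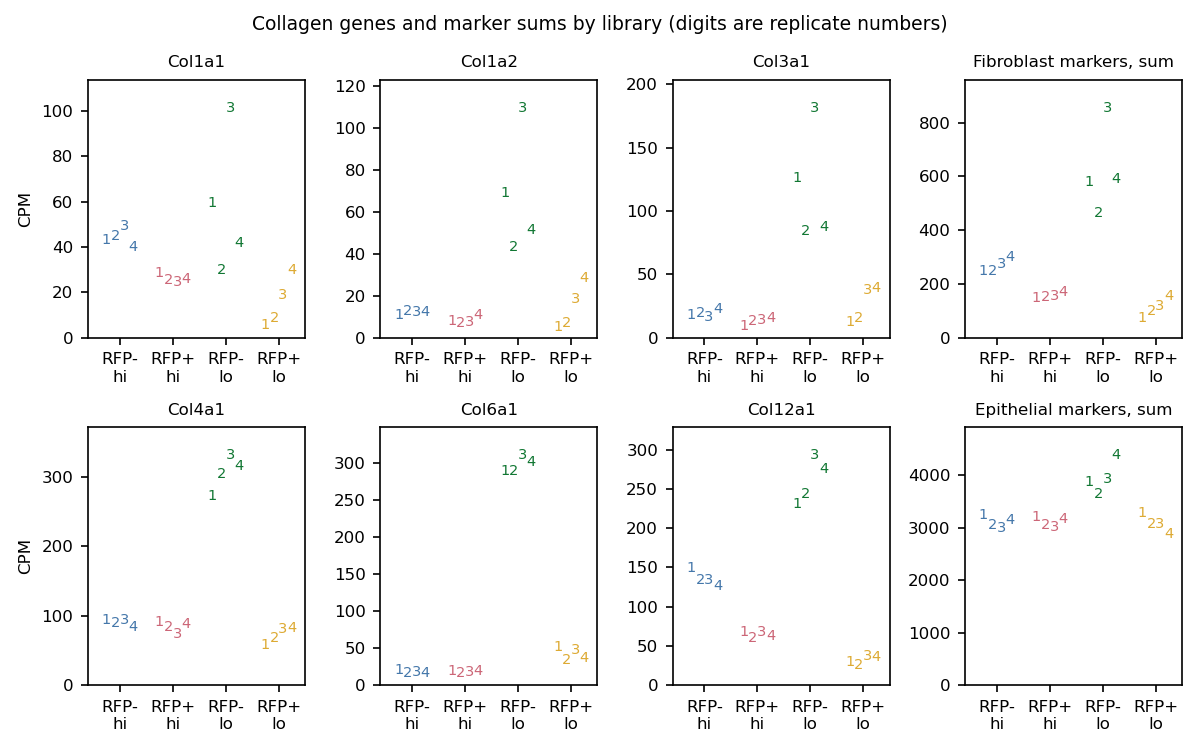
CPM of 6 collagen genes and summed CPM of the fibroblast and epithelial markers in each library, with the axis from 0, populations side by side and digits giving the replicate number. Col1a1, Col1a2, Col3a1 and the fibroblast sum share a high replicate 3 in RFP- MHCIIlo, while Col4a1, Col6a1 and Col12a1 vary little there.

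Collagen V, which sets fiber diameter, is made from Col5a1, Col5a2 and Col5a3. Col5a1 stood at 46.7, 44.5, 52.4 and 42.9 CPM in RFP- and 6.92, 8.53, 13.7 and 12.0 in RFP+ MHCIIlo cells. Col5a1 in MHCIIhi cells stood at 44.4, 40.8, 44.5 and 38.5 CPM in RFP- and 27.3, 26.7, 25.6 and 29.8 in RFP+. It was lowest in RFP+ MHCIIlo. Col5a2 stood at 27.2, 35.3, 43.2 and 28.9 CPM in RFP- and 1.19, 3.29, 4.67 and 7.46 in RFP+ MHCIIlo cells. Col5a2 in MHCIIhi cells stood at 32.4, 40.7, 38.8 and 30.9 CPM in RFP- and 12.5, 13.1, 12.0 and 12.9 in RFP+. For both, the RFP- gates overlapped, and RFP+ cells lay below RFP- cells in both gates. Col5a1 differed by -2.16 (SE 0.14, edgeR adjusted p = 5.9e-12) in MHCIIlo and -0.62 (SE 0.12, edgeR adjusted p = 1.7e-04) in MHCIIhi, and Col5a2 by -2.96 (SE 0.25, edgeR adjusted p = 7.1e-10) and -1.50 (SE 0.21, edgeR adjusted p = 2.2e-06), 7.79-fold lower and 2.82-fold lower. Col5a3 stood at 3.83, 4.75, 6.14 and 4.99 CPM in RFP- and 5.40, 9.87, 8.41 and 12.0 in RFP+ MHCIIlo cells. Col5a3 in MHCIIhi cells stood at 22.4, 25.2, 26.3 and 22.1 CPM in RFP- and 24.6, 29.1, 23.0 and 28.8 in RFP+. Every MHCIIhi library lay above every MHCIIlo library. Its gate difference in RFP- cells was -2.27 (SE 0.18, edgeR adjusted p = 7.5e-11), and it was higher in RFP+ than in RFP- MHCIIlo cells, 0.86 (SE 0.19, edgeR adjusted p = 6.7e-04), though the ranges overlapped.

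Col2a1, the cartilage collagen, stood at 11.9, 15.9, 10.6 and 12.6 CPM in RFP- and 1.84, 2.56, 4.78 and 3.81 in RFP+ MHCIIlo cells. Col2a1 in MHCIIhi cells stood at 12.4, 15.5, 15.1 and 11.5 CPM in RFP- and 11.2, 8.05, 8.61 and 8.63 in RFP+. The RFP- gates overlapped, and RFP+ cells were lower in both, -1.95 (SE 0.22, edgeR adjusted p = 7.0e-08) in MHCIIlo and -0.58 (SE 0.18, edgeR adjusted p = 0.012) in MHCIIhi. Other cartilage genes differed between the gates. Of 7 chondrocyte markers 5 were lower and 1 higher in RFP- MHCIIlo than in RFP- MHCIIhi, Cnmd at 1.10 against 17.8 CPM and Comp at 0.389 against 8.58, where Col2a1 differed by -0.09 (edgeR adjusted p = 0.65). Of all tested genes, 35.6% were lower and 33.5% higher there. Col27a1, a long fibrillar collagen of cartilage matrix, stood at 78.3, 91.0, 80.1 and 75.2 CPM in RFP- and 32.7, 56.8, 60.0 and 53.6 in RFP+ MHCIIlo cells. Col27a1 in MHCIIhi cells stood at 54.1, 59.0, 61.8 and 41.5 CPM in RFP- and 67.1, 67.0, 65.0 and 60.5 in RFP+. It was highest in RFP- MHCIIlo, and fell by 0.68 (SE 0.14, edgeR adjusted p = 2.3e-04) in RFP+ MHCIIlo.

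The low fibrillar members Col11a1, Col11a2 and Col24a1 had population means of at most 4.89 CPM. Col11a1 and Col24a1 were lower in RFP- MHCIIlo than in RFP- MHCIIhi, -2.51 (edgeR adjusted p = 4.3e-04) and -2.21 (edgeR adjusted p = 1.8e-04), and Col11a2 had no call, though its gate difference in RFP- cells was called without RFP- MHCIIhi replicate 2 (0.50, edgeR adjusted p = 0.033). Col11a1 was also called higher in RFP+ MHCIIlo without RFP+ MHCIIlo replicate 1 (1.45, edgeR adjusted p = 0.033) and below RFP+ MHCIIhi there without RFP+ MHCIIlo replicate 4 (-1.69, edgeR adjusted p = 0.017), against 1.05 (edgeR adjusted p = 0.19) and -0.79 (edgeR adjusted p = 0.21) with all libraries. Col24a1 was higher in RFP+ than in RFP- MHCIIlo, 1.40 (edgeR adjusted p = 0.024), a call lost without RFP+ MHCIIlo replicate 4 (0.81, edgeR adjusted p = 0.21), without RFP- MHCIIlo replicate 2 (1.03, edgeR adjusted p = 0.085) or without RFP- MHCIIlo replicate 3 (1.21, edgeR adjusted p = 0.072).

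Among the collagens that sit on the surface of fibers (FACITs), Col12a1 (chr9:79598991-79718831, minus strand) had the largest RFP difference of the 9 members in MHCIIlo. Col12a1 stood at 231, 243, 293 and 275 CPM in RFP- and 29.7, 25.4, 37.0 and 35.9 in RFP+ MHCIIlo cells. Col12a1 in MHCIIhi cells stood at 149, 133, 134 and 126 CPM in RFP- and 67.6, 60.5, 67.3 and 62.5 in RFP+. The 4 populations did not overlap, RFP- MHCIIlo being highest and RFP+ MHCIIlo lowest. RFP+ cells were 8.12-fold lower in MHCIIlo, -3.02 (SE 0.11, edgeR adjusted p = 6.5e-16), and 2.10-fold lower in MHCIIhi, -1.07 (SE 0.10, edgeR adjusted p = 5.1e-09). Its relative Col14a1 stood at 26.6, 28.9, 35.4 and 27.4 CPM in RFP- and 5.40, 8.65, 10.4 and 12.5 in RFP+ MHCIIlo cells. Col14a1 in MHCIIhi cells stood at 68.1, 69.2, 63.2 and 67.4 CPM in RFP- and 61.7, 59.6, 53.1 and 54.5 in RFP+. It was higher in MHCIIhi throughout. RFP+ MHCIIlo was lowest, -1.66 (SE 0.15, edgeR adjusted p = 2.7e-09) against RFP- MHCIIlo, and the gate difference in RFP- cells, -1.18 (SE 0.13, edgeR adjusted p = 2.4e-08), had the opposite sign to that of Col12a1, 0.94 (SE 0.10, edgeR adjusted p = 1.1e-08).

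Col16a1 stood at 30.0, 24.1, 31.6 and 26.0 CPM in RFP- and 25.1, 25.4, 25.8 and 23.5 in RFP+ MHCIIlo cells. Col16a1 in MHCIIhi cells stood at 21.5, 22.4, 18.1 and 16.5 CPM in RFP- and 9.82, 8.81, 9.11 and 10.5 in RFP+. RFP+ MHCIIhi was lowest and apart from the rest, while the MHCIIlo populations overlapped: -1.04 (SE 0.12, edgeR adjusted p = 1.1e-07) in MHCIIhi and -0.16 (edgeR adjusted p = 0.24) in MHCIIlo. Col19a1 stood at 13.0, 14.3, 18.9 and 12.1 CPM in RFP- and 2.70, 5.24, 5.71 and 4.64 in RFP+ MHCIIlo cells. Col19a1 in MHCIIhi cells stood at 11.3, 10.0, 11.9 and 7.52 CPM in RFP- and 5.22, 6.82, 8.40 and 5.75 in RFP+. RFP+ MHCIIlo overlapped RFP+ MHCIIhi and lay below the RFP- populations. It had an RFP difference of -1.67 (SE 0.22, edgeR adjusted p = 6.8e-07) in MHCIIlo. Col9a1, a cartilage FACIT chain, stood at 2.02, 1.70, 1.28 and 1.12 CPM in RFP- and 4.32, 2.07, 2.08 and 3.48 in RFP+ MHCIIlo cells. Col9a1 in MHCIIhi cells stood at 8.95, 8.58, 8.13 and 6.72 CPM in RFP- and 3.59, 3.67, 3.02 and 4.56 in RFP+. RFP- MHCIIhi was highest and RFP- MHCIIlo lowest, with the RFP+ populations between them. The RFP difference was therefore negative in MHCIIhi, -1.13 (SE 0.21, edgeR adjusted p = 1.2e-04), and positive in MHCIIlo, 0.99 (SE 0.28, edgeR adjusted p = 0.0045), and the difference between them 2.12 (SE 0.35, edgeR adjusted p = 4.6e-05). Without replicates 1 and 4 of RFP+ MHCIIlo the positive call was lost (0.45, edgeR adjusted p = 0.25).

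Col20a1 stood at 4.46, 3.05, 4.52 and 3.96 CPM in RFP- and 2.59, 3.05, 3.43 and 4.64 in RFP+ MHCIIlo cells. Col20a1 in MHCIIhi cells stood at 7.38, 7.36, 8.06 and 5.51 CPM in RFP- and 6.00, 5.83, 6.09 and 5.47 in RFP+. The gates did not overlap. Col22a1 stood at 4.36, 2.04, 4.61 and 6.37 CPM in RFP- and 2.49, 2.68, 3.32 and 2.82 in RFP+ MHCIIlo cells. Col22a1 in MHCIIhi cells stood at 8.58, 10.5, 9.82 and 7.24 CPM in RFP- and 6.63, 7.12, 7.02 and 6.25 in RFP+. Both were higher in MHCIIhi than in MHCIIlo within RFP- and within RFP+ cells, without overlap, with gate differences in RFP- cells of -0.82 (edgeR adjusted p = 5.3e-04) and -1.05 (edgeR adjusted p = 1.9e-04) and in RFP+ cells of -0.75 (edgeR adjusted p = 0.0026) and -1.25 (edgeR adjusted p = 1.1e-04). Col22a1 was lower in RFP+ than in RFP- MHCIIlo, -0.61 (edgeR adjusted p = 0.048), a call lost without any 1 of RFP+ MHCIIhi replicates 3 or 4, RFP+ MHCIIlo replicates 1, 2 or 4, RFP- MHCIIhi replicate 2 or RFP- MHCIIlo replicates 1, 3 or 4 (values from -0.62 to -0.36, edgeR adjusted p from 0.053 to 0.25). The partner chains Col9a2 and Col9a3 reached at most 6.31 CPM in any library. Col9a2 was lower in RFP+ than in RFP- MHCIIhi cells, -0.95 (edgeR adjusted p = 0.0041), and Col9a3 was higher in RFP- MHCIIlo than in RFP- MHCIIhi, 0.80 (edgeR adjusted p = 0.0054). Of the 3853 exon bases of Col9a3, 234 overlap Tcfl5 on the opposite strand, so some of its reads may belong to that gene.

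The short-chain collagens form hexagonal nets. Col8a1 stood at 17.9, 19.5, 18.7 and 12.1 CPM in RFP- and 32.7, 26.3, 23.6 and 22.8 in RFP+ MHCIIlo cells. Col8a1 in MHCIIhi cells stood at 4.64, 4.52, 5.83 and 4.65 CPM in RFP- and 7.09, 7.17, 7.63 and 7.02 in RFP+. The populations did not overlap, and both steps pointed to RFP+ MHCIIlo as highest: RFP+ over RFP- was 0.63 (SE 0.14, edgeR adjusted p = 8.3e-04) in MHCIIlo and 0.57 (SE 0.16, edgeR adjusted p = 0.0061) in MHCIIhi, and MHCIIlo over MHCIIhi 1.80 (SE 0.16, edgeR adjusted p = 5.6e-10) in RFP- cells. Its partner Col8a2, at most 3.70 CPM, fell in RFP+ MHCIIlo, -2.67 (edgeR adjusted p = 2.9e-06). Col10a1, the collagen of hypertrophic cartilage, stood at 3.72, 2.29, 4.52 and 2.15 CPM in RFP- and 4.43, 4.39, 4.67 and 3.65 in RFP+ MHCIIlo cells. Col10a1 in MHCIIhi cells stood at 9.97, 11.3, 12.4 and 10.9 CPM in RFP- and 12.5, 11.0, 14.5 and 11.4 in RFP+. It was higher in every MHCIIhi library than in any MHCIIlo library, -1.81 (SE 0.19, edgeR adjusted p = 1.6e-08) in RFP- cells, with RFP differences of 0.43 (edgeR adjusted p = 0.099) in MHCIIlo (called without RFP- MHCIIlo replicate 3 (0.67, edgeR adjusted p = 0.015)) and 0.16 (edgeR adjusted p = 0.47) in MHCIIhi.

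Col17a1 (chr19:47646344-47692094, minus strand) encodes a transmembrane collagen of hemidesmosomes, the junctions that anchor basal epithelium to the basement membrane. Col17a1 stood at 39.1, 38.2, 46.7 and 47.9 CPM in RFP- and 27.1, 39.7, 39.6 and 38.9 in RFP+ MHCIIlo cells. Col17a1 in MHCIIhi cells stood at 62.3, 65.2, 55.6 and 56.7 CPM in RFP- and 101, 103, 102 and 102 in RFP+. RFP+ MHCIIhi was highest, 4 libraries at nearly the same level, RFP- MHCIIhi next, and the MHCIIlo populations overlapped. RFP+ MHCIIhi was 1.70-fold higher than RFP- MHCIIhi, 0.76 (SE 0.10, edgeR adjusted p = 9.3e-07), and the MHCIIlo difference was -0.24 (edgeR adjusted p = 0.061). That last value was called with DESeq2 size factors (-0.25, edgeR adjusted p = 0.045) and without any 1 of RFP+ MHCIIhi replicates 1 or 2, RFP+ MHCIIlo replicates 2, 3 or 4, RFP- MHCIIhi replicates 1, 3 or 4 or RFP- MHCIIlo replicates 1 or 2 (values from -0.32 to -0.28, edgeR adjusted p from 0.023 to 0.047). In RFP- cells MHCIIlo was below MHCIIhi, -0.48 (SE 0.10, edgeR adjusted p = 2.5e-04). All 10 hemidesmosome partners listed, by contrast, were higher in RFP- MHCIIlo than in RFP- MHCIIhi (median 1.47), and all 10 were lower in RFP+ than in RFP- MHCIIlo (median -1.50). Over all tested genes, 33.5% were higher in the former comparison and 22.7% lower in the latter. The keratin Krt14 fell from 437 ± 64.4 to 97.5 ± 9.07 CPM (SD, n = 4) and the laminin chain gene Lama3 from 303 ± 38.8 to 81.1 ± 6.56. Krt5 fell from 1342 ± 190.2 to 470.3 ± 9.13 and the integrin gene Itga6 from 412 ± 37.6 to 146 ± 9.72. In MHCIIhi, 2 of the 10 partners were higher in RFP+ cells and 5 lower, against 23.8% and 21.2% of all tested genes.

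Col23a1, also a transmembrane collagen, stood at 7.02, 9.84, 5.97 and 9.46 CPM in RFP- and 3.35, 2.56, 1.56 and 1.74 in RFP+ MHCIIlo cells. Col23a1 in MHCIIhi cells stood at 8.67, 8.39, 6.14 and 6.95 CPM in RFP- and 6.00, 3.67, 4.50 and 4.14 in RFP+. RFP+ MHCIIlo was lowest, without overlap with the other populations. RFP+ cells were lower in both gates, -1.83 (SE 0.25, edgeR adjusted p = 1.3e-06) in MHCIIlo and -0.73 (SE 0.21, edgeR adjusted p = 0.0065) in MHCIIhi. The remaining members, Col13a1, Col25a1, Col26a1 and Col28a1, had population means of at most 2.29 CPM. Col13a1, Col25a1 and Col26a1 were lower in RFP- MHCIIlo than in RFP- MHCIIhi, with log2 differences of -1.37, -1.15 and -1.19 (edgeR adjusted p = 0.025, 0.019 and 0.0022). Col25a1 was higher in RFP+ than in RFP- MHCIIlo, 1.23 (edgeR adjusted p = 0.022), a call lost without any 1 of RFP+ MHCIIlo replicates 1, 3 or 4 or RFP- MHCIIlo replicates 3 or 4 (values from 1.04 to 1.14, edgeR adjusted p from 0.051 to 0.068). The gate calls were lost for Col13a1 without RFP- MHCIIhi replicate 2 (-1.25, edgeR adjusted p = 0.066), without RFP- MHCIIlo replicate 3 (-1.11, edgeR adjusted p = 0.086) or without RFP- MHCIIlo replicate 4 (-1.17, edgeR adjusted p = 0.073) and for Col25a1 without RFP- MHCIIhi replicate 1 (-1.01, edgeR adjusted p = 0.064), without RFP- MHCIIlo replicate 3 (-0.99, edgeR adjusted p = 0.061) or without RFP- MHCIIlo replicate 4 (-0.99, edgeR adjusted p = 0.058). Col28a1 had no call in any contrast, though its RFP difference in MHCIIlo was called without RFP+ MHCIIlo replicate 1 (1.12, edgeR adjusted p = 0.022), without RFP+ MHCIIlo replicate 3 (1.07, edgeR adjusted p = 0.033) or without RFP- MHCIIlo replicate 2 (1.15, edgeR adjusted p = 0.045).

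The plot of both RFP differences sets the gates side by side. The RFP differences of Col6a1 and Col4a2 lay near 0 in MHCIIhi and below -2 in MHCIIlo, and Col5a2 and Col12a1 were lower in RFP+ cells in both. Calls of opposite sign were made for 4 members, and the share of such calls over all tested genes was not computed. Col4a5 and Col6a2 were lower in RFP+ cells in MHCIIlo and higher in MHCIIhi. Col6a5 and Col9a1 were higher in RFP+ cells in MHCIIlo and lower in MHCIIhi. The MHCIIlo calls of Col6a5 and Col9a1 were lost on leaving out libraries, as given above. For Col8a1 the test of the difference between the RFP differences gave 0.06 (edgeR adjusted p = 0.86).

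**Figure D4:**
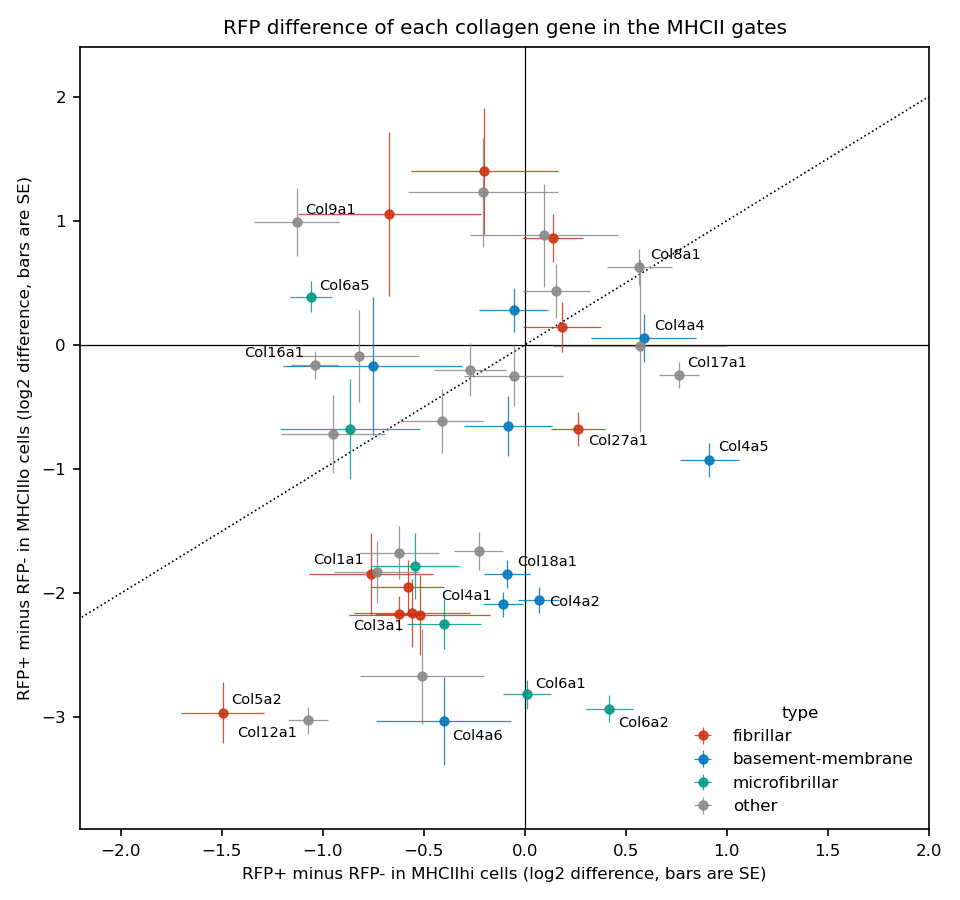
Log2 RFP+ minus RFP- difference of each of the 44 collagen genes in MHCIIhi (x axis) and MHCIIlo cells (y axis), with SE bars and color by type, and a dotted line where both would be equal. Most points lie below the line, Col6a2 and Col4a5 lie to the right of 0 and below it, and Col6a5 and Col9a1 lie to the left of 0 and above it.

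Per kilobase of transcript, the order of the collagens differed between populations. In RFP- MHCIIlo it ran Col6a1 (72.5 ± 2.56 CPM per kb, SD, n = 4), Col6a2 (67.7 ± 2.32), Col4a1 (46.2 ± 3.76), Col4a2 (30.0 ± 2.19), Col12a1 (22.7 ± 2.49) and Col3a1 (21.5 ± 8.14), the last pair within each other's spread. In RFP+ MHCIIlo it ran Col4a1 (10.8 ± 1.77), Col6a1 (10.3 ± 2.13), Col6a2 (8.86 ± 1.90), Col4a2 (7.23 ± 1.25) and Col27a1 (6.67 ± 1.62), each within the spread of its neighbor. RFP- MHCIIhi was led by Col4a1 (13.7 ± 0.744), Col12a1 (11.8 ± 0.845), Col17a1 (10.7 ± 0.814) and Col14a1 (10.4 ± 0.408), the last pair not apart beyond the spread. RFP+ MHCIIhi was led by Col17a1 (18.2 ± 0.156), above Col4a1 (12.7 ± 1.07) by more than the spread, then Col4a2 (9.02 ± 0.767), Col14a1 (8.86 ± 0.630) and Col27a1 (8.53 ± 0.406).

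Most listed genes that process collagen fell in MHCIIlo cells with RFP. For comparison, 22.7% of all tested genes were lower and 28.9% higher in MHCIIlo, and 21.2% and 23.8% in MHCIIhi. Of 20 folding and modification genes, 16 were lower and 1 (Mia3) higher in RFP+ than in RFP- MHCIIlo cells (median -0.88, against 0.07 over all genes), and 6 were lower and 0 higher in MHCIIhi. The collagen chaperone gene Fkbp10 fell from 18.0 ± 2.57 to 2.30 ± 0.285 CPM (SD, n = 4), -2.96 (edgeR adjusted p = 6.4e-12), and the prolyl hydroxylase gene P4ha3 from 15.6 ± 1.22 to 2.39 ± 1.32, -2.73 (edgeR adjusted p = 9.5e-09). P4hb, which encodes the other subunit of that enzyme, was 185 ± 4.39 and 169 ± 10.4 CPM, -0.14 (edgeR adjusted p = 0.11), and Mia3, which exports procollagen, 90.2 ± 7.86 and 102 ± 3.32, 0.18 (edgeR adjusted p = 0.048). Of 13 tested genes for propeptide cleavage and crosslinking (Tll2 was too low), 10 were lower and 2 higher in MHCIIlo, and 6 lower and 3 higher in MHCIIhi. Lox, whose product crosslinks collagen, fell from 58.2 ± 8.07 to 7.17 ± 3.31 CPM, -2.98 (edgeR adjusted p = 7.1e-12), and its relative Loxl1 from 9.05 ± 3.08 to 1.29 ± 0.872, -2.74 (edgeR adjusted p = 1.3e-07). Pxdn, which crosslinks collagen IV, fell from 60.3 ± 5.64 to 18.0 ± 6.32, -1.72 (edgeR adjusted p = 8.9e-10), and the procollagen protease gene Bmp1 from 33.4 ± 1.56 to 11.1 ± 1.10, -1.58 (edgeR adjusted p = 8.5e-12).

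The matrix partners that bind collagen had the lowest median of the 6 pathway lists for RFP in MHCIIlo, but not in MHCIIhi. Of 11, 10 were lower and 0 higher in RFP+ than in RFP- MHCIIlo cells (median -1.91), and 4 lower and 1 higher in MHCIIhi. The shares over all tested genes were 22.7% lower and 28.9% higher in MHCIIlo, and 21.2% and 23.8% in MHCIIhi. The small proteoglycan genes Prelp and Fmod fell from 137 ± 24.7 to 4.35 ± 1.39 CPM, -4.97 (edgeR adjusted p = 3.5e-16), and from 64.0 ± 9.88 to 2.31 ± 0.707, -4.78 (edgeR adjusted p = 4.0e-15). Fibronectin, Fn1, fell from 163 ± 14.4 to 43.4 ± 8.85, -1.91 (edgeR adjusted p = 1.0e-12), and Sparc from 406 ± 82.5 to 55.5 ± 16.2, -2.87 (edgeR adjusted p = 5.4e-13). The list shares Dcn and Lum with the fibroblast markers. Of 13 genes for collagen breakdown and its inhibitors, 7 were lower and 3 higher in MHCIIlo, and 2 lower and 3 higher in MHCIIhi. The gelatinase gene Mmp9 fell from 66.5 ± 5.11 to 12.6 ± 2.69 CPM, -2.40 (edgeR adjusted p = 1.1e-12), and Mmp2 from 34.3 ± 2.75 to 8.61 ± 4.12, -1.96 (edgeR adjusted p = 5.0e-07). Timp3 fell from 239 ± 37.2 to 134 ± 15.0, -0.84 (edgeR adjusted p = 2.7e-07), and Timp2 from 152 ± 15.5 to 65.4 ± 7.19, -1.21 (edgeR adjusted p = 1.8e-09), both inhibitors of matrix proteases.

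Of 8 tested collagen receptor genes (Gp6 was too low), 4 were lower and 1 higher in RFP+ than in RFP- MHCIIlo cells, and 0 lower and 3 higher in MHCIIhi. Among all tested genes, 22.7% were lower and 28.9% higher in MHCIIlo, and 21.2% and 23.8% in MHCIIhi. The integrin chain gene Itga1 had opposite signs in the gates, as Col6a2 and Col4a5 did, -1.29 (edgeR adjusted p = 6.8e-07) in MHCIIlo and 1.40 (edgeR adjusted p = 1.2e-07) in MHCIIhi, as did the epithelial receptor kinase gene Ddr1, -0.84 (edgeR adjusted p = 8.9e-08) and 0.27 (edgeR adjusted p = 0.024). Ddr2, its mesenchymal relative, fell from 12.5 ± 4.83 to 2.70 ± 1.31 CPM in MHCIIlo, -2.19 (edgeR adjusted p = 1.3e-06). Itgb1 fell from 196 ± 21.2 to 141 ± 29.2, -0.47 (edgeR adjusted p = 0.0013).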

How the data were processed

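Poly(A) RNA of sorted mTECs was amplified and made into libraries with kits that do not mark strand, per the labels' protocols. The authors deposited raw read counts per gene, 1 column per library, and per the submitters' processing notes STAR, DESeq2 and GRCm38 were used, with the counting tool, annotation release and strand setting not given in the sources used here. From the deposited counts of 43432 genes, 19617 passed edgeR's filter at a minimum count of 10. One quasi-likelihood fit in edgeR 4.0.16 (R 4.3.3) covered all 16 libraries with a mean per population, TMM scaling and Benjamini-Hochberg adjustment over all tested genes, at an adjusted p under 0.05. Levels per kilobase used the longest coding transcript in GENCODE M21. Every member is reported, and those with a mean of 5 CPM or more in any population (32 of 44) are given in every library. In each pathway list the 2 called genes with the largest RFP difference in MHCIIlo and the 2 with the highest mean CPM were named, and single marker genes were picked after their values were seen. The members and lists were chosen with earlier results of these data known. The fit was tested on simulated data. Alternatives were DESeq2 1.42.0 and its size factors, limma 3.58.1, other filters, the replicate block, fewer populations, removal of mitochondrial and ribosomal RNA genes, and leaving out libraries. No library repeated another: within populations the lowest chi-square per degree of freedom was 3.18 over 24 pairs.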

Additional observations from a re-analysis of the deposited data

Results flagged for a closer look

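Between the gates, the RFP difference itself differed past the edgeR threshold for 25 of the 44 members, being more negative in MHCIIlo for 21 and more positive there for 4. Negative values (MHCIIlo minus MHCIIhi, log2 scale), among the fibrillar genes, were those of Col1a2 (-1.65), Col27a1 (-0.94), Col2a1 (-1.37), Col3a1 (-1.60), Col5a1 (-1.54) and Col5a2 (-1.47). Basement-membrane genes with negative values were Col18a1 (-1.76), Col4a1 (-1.98), Col4a2 (-2.12), Col4a5 (-1.84) and Col4a6 (-2.63). Collagen VI genes with negative values were Col6a1 (-2.83), Col6a2 (-3.35), Col6a3 (-1.23) and Col6a4 (-1.85). Of the other members, Col12a1 (-1.95), Col14a1 (-1.43), Col17a1 (-1.01), Col19a1 (-1.05), Col23a1 (-1.10) and Col8a2 (-2.16) were negative. The positive values were those of Col5a3 (0.72), Col6a5 (1.45), Col16a1 (0.88) and Col9a1 (2.12). The Col5a3 call was lost without any 1 of RFP+ MHCIIhi replicates 1 or 3, RFP+ MHCIIlo replicates 2 or 4, RFP- MHCIIhi replicate 3 or RFP- MHCIIlo replicates 1 or 2 (values from 0.52 to 0.69, edgeR adjusted p from 0.052 to 0.085).

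In 5 of the 176 sets of 4 libraries (44 genes in 4 populations) 1 library stood apart from the other 3, where chance alone gives about 1 in 20 sets. Col11a2 was at 4.84 CPM in RFP- MHCIIhi replicate 2 and at 3.062 to 3.158 in the other replicates. Col8a1 was at 5.833 CPM in RFP- MHCIIhi replicate 3, against 4.517 to 4.651. Col6a5 was at 10.2 CPM in RFP- MHCIIlo replicate 1, against 12.9 to 13.33. Col24a1 was at 2.819 CPM in RFP+ MHCIIlo replicate 4, against 0.853 to 1.08, and its higher level in RFP+ MHCIIlo was not called without that library. Col17a1 was at 27.12 CPM in RFP+ MHCIIlo replicate 1, against 38.89 to 39.74.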

How the results depend on the processing

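Of the calls in RFP+ against RFP- MHCIIlo cells, 23 of 29 held under every alternative that tested the gene, as did 14 of 18 in MHCIIhi. The shares were 28 of 34 between the RFP- gates, 22 of 27 between the RFP+ gates and 24 of 25 for the difference between the RFP differences. In MHCIIhi the count of called members rose from 18 (40.9%) to 28 (63.6%) when only the 2 populations compared were fitted, and the share of all tested genes called from 45% to 57.6%. Leaving out 1 library at a time gave 26 to 31 called members for RFP in MHCIIlo, 14 to 21 for RFP in MHCIIhi, 30 to 34 between the RFP- gates, 25 to 31 between the RFP+ gates and 24 to 28 for the difference of differences. One value reversed: the Col4a3 difference of RFP differences was 0.58 with all libraries and ran from -1.48 without RFP+ MHCIIlo replicate 4 to 0.93 without RFP+ MHCIIlo replicate 3. In no alternative did the median change of the log2 difference, over genes tested in both fits, exceed 0.1 in size.

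Pairing was checked with Pearson's r of deviations from the population means, over tested genes. Samples with the same replicate number correlated between -0.02 and 0.13 over 24 pairs (median 0.06), with 4 pairs over 0.1. The 72 pairs with different numbers lay between -0.12 and 0.08 (median -0.02), with 0 over 0.1. The rule set for pairing was an r over 0.1 in every pair, so the numbers were not taken to pair the samples. Still, 14 of 16 libraries had their highest mean r with their own number. The samples may thus be paired by number, which the main fit ignores and the replicate block takes into account. With the replicate block, 28 members were called for RFP in MHCIIlo, 19 for RFP in MHCIIhi, 34 between the RFP- gates, 29 between the RFP+ gates and 28 for the difference of differences. Under the block Col22a1 lost its call for RFP in MHCIIlo (-0.61, edgeR adjusted p = 0.060). Calls were gained for Col4a4 in MHCIIhi (0.60, edgeR adjusted p = 0.0028), for Col1a1 and Col4a1 between the RFP+ gates (-0.76 and -0.23, edgeR adjusted p = 0.043 and 0.047) and for Col1a1, Col4a4 and Col24a1 in the difference of differences (-1.07, -0.55 and 1.62, edgeR adjusted p = 0.049, 0.029 and 0.037). Depth limits the members below 5 CPM: Col4a3 had as little as 1 read in a library.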
